A study of Mus musculus with 24 samples.

Results

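Single-nucleus RNA sequencing (snRNA-seq) of the ventral hippocampus compared C57BL/6J (B6) with DBA/2J (D2) mice, and the results given here are the strain differences in transcripts of the pyramidal neurons of field CA1. Per library, counts were summed over the 3 clusters named Exc-CA1-Galntl6, Exc-CA1-Fras1 and Exc-CA1-Camk2d. Of the 33902 gene symbols in the table, 23143 had CA1 counts in both strains and are the members described here, and 17259 of those passed a filter on low counts and were tested. The other symbols were set aside because the lists of genes counted differed between the strains. The comparison used 4 of the 24 samples of the series, 2 libraries of each strain. All animals were inbred adult males, 10 to 16 weeks old, with no treatment or transgene named, and tissue of about 2 animals was pooled in each library. Nuclei for snRNA-seq were sorted to enrich neurons by NeuN, a nuclear protein of neurons. The p-values given below measure the spread between such pooled libraries, of which there were 2 a strain.

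CA1 pyramidal neurons are the glutamatergic output cells of the hippocampus proper. They receive the Schaffer collaterals of CA3, are a main site for the study of long-term potentiation, and in the ventral hippocampus project to the amygdala, hypothalamus and prefrontal cortex. B6 and D2 are inbred strains that differ at many sequence variants and in many behaviors, and are the parents of the BXD recombinant inbred panel.

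The B6 libraries, numbered 2 and 3 as in the deposited tables, held 15368440 counts from 1772 CA1 nuclei and 14911660 counts from 1386 nuclei. The D2 libraries 2 and 3 held 15087294 counts from 1670 nuclei and 12303269 counts from 1232 nuclei. Replicates differed far less than strains: the chi-square per symbol was 5.05 within B6 and 2.43 within D2, and 24.8 and 25.9 between a B6 and a D2 library. The Exc-CA1-Galntl6 cluster made up 57.8% and 52.5% of CA1 nuclei in the B6 libraries 2 and 3 and 47.8% and 47.6% in the D2 libraries. The Exc-CA1-Camk2d cluster made up 16.5% and 24.2% in B6 and 26.4% and 28.2% in D2, so that B6 library 3 lay nearer to D2 than B6 library 2 did. Exc-CA1-Fras1 held 23.3% to 25.7% in all 4. In a sum over nuclei, fewer nuclei of a kind and less RNA per nucleus cannot be told apart.

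CA1 markers were detected in both strains. All 7 CA1 pyramidal markers passed the filter, and 1 of them was called: Pou3f1, a POU-domain transcription factor, had 21.9 and 18 CPM (counts scaled to library size) in B6 and 24.2 and 29.1 in D2, a log2 fold change (D2 minus B6) of 0.41 ± 0.13 (SE). That call was lost without B6 library 3 or D2 library 3 (adjusted p = 0.112 and 0.216 by edgeR). Summed over the list, the CA1 markers stood at 678 and 681 CPM in B6 and 714 and 718 in D2. Of the 3 genes that name the clusters, Galntl6 (log2 -0.23 ± 0.06) and Fras1 (-0.31 ± 0.07) were lower in D2 and Camk2d was not called. In a fit with the trend on gene span removed, described below, Galntl6 (-0.05) and Fras1 (-0.16) were not called. Of the 3 genes, 1 was called higher in that fit. The 4 CA3 markers tested summed to 253 and 225 CPM in B6 and 297 and 285 in D2, and 1 of them, Grik4, was higher. Among general excitatory markers, Neurod6, a neuronal bHLH transcription factor, was higher in D2 (51.7 and 46.1 CPM in B6, 83.1 and 86.5 in D2, log2 0.79 ± 0.08), as was Nrgn, which encodes the calmodulin-binding protein neurogranin (109 and 96.9 against 130 and 142, 0.40 ± 0.08). Camk2a was lower (961 and 964 against 791 and 766 CPM, -0.31 ± 0.06) and the fourth, Slc17a7, was not called, and the 4 summed to 1450 and 1460 CPM in B6 and 1360 and 1360 in D2. Dcn, the proteoglycan decorin and a gene of the ventral end of the hippocampal axis, was also higher in D2, at 109 and 113 CPM in B6 and 173 and 195 in D2 (0.73 ± 0.08), while the other 3 axis genes, Nr2f2, Htr2c and Gpr101, had log2 differences of 0.10 to 0.19 and were not called.

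Markers of other cell types were present at low levels and some moved with strain. The 7 oligodendrocyte markers summed to 160 and 163 CPM in B6 and 105 and 97.7 CPM in D2, with 4 of 7 lower in D2, among them Mbp (myelin basic protein, log2 -0.56 ± 0.08). The 3 oligodendrocyte precursor markers summed to 8.41 and 7.52 CPM in B6 and 5.20 and 4.36 in D2, and 2 of 3 were lower. The 5 microglial markers summed to 250 and 235 CPM in B6 and 183 and 173 in D2, with 2 of 5 lower, among them P2ry12 (-0.38 ± 0.07), while Cx3cr1 stood at -0.03 ± 0.10. The 9 interneuron markers tested, of 10 listed, summed to 70.4 and 73.5 CPM in B6 and 58.4 and 50.9 in D2, and 3 were lower. Without B6 library 2 the precursor and interneuron markers gave 1 call each, and without D2 library 3 the interneuron markers gave 1. The dentate granule marker Prox1 was lower in D2 (50 and 65 counts against 21 and 22, -1.31 ± 0.28). The Cajal-Retzius marker Trp73 was higher (8 and 10 counts against 64 and 52, 2.77 ± 0.31), and another marker of those cells, Reln, was lower (-0.41 ± 0.14), a call lost without B6 library 3 (adjusted p = 0.616 by edgeR). The 5 astrocyte markers, at 36.7 and 40.4 CPM in B6 and 39.3 and 41.0 in D2, and the 6 CA2 markers had no call. The part of these other cells in the differences reported below was not tested.

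In all, 5194 of the 17259 symbols (30.1%) differed between strains at an adjusted p under 0.05 by edgeR's quasi-likelihood test, and these are the symbols described as called. There were 2418 (14%) higher in D2 and 2776 (16.1%) lower. The median log2 fold change over all symbols tested was 0.01. Differences over 2-fold were found for 1369 symbols (7.93%), 619 higher and 750 lower in D2. Under DESeq2, the tool that the study used, 2873 symbols were called, each of them also called by edgeR in the same direction.

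Symbols that overlapped a gene counted in D2 alone were more often lower in D2 than higher. A total of 7584 symbols had CA1 counts in D2 and none in B6, with 925318 counts, or 3.38% of the D2 total, and 104 of them held at least 1000 counts. Counts in B6 alone were found for 1223 symbols, with 0.711% of the B6 total. Of the 1603 tested symbols whose span overlapped a D2-only gene on the same strand, 605 were lower in D2 and 126 higher, with a median log2 fold change of -0.16. Of the 15359 without such an overlap, 2111 were lower and 2249 higher, with a median of 0.03. Among those that overlapped a D2-only gene with at least 10 counts, 445 of 1011 were lower and 64 higher. The lean was not limited to D2-only genes. Of 34 symbols that overlapped a B6-only gene on the same strand, 13 were lower and 5 higher. Of 3932 that overlapped any other GENCODE gene, a class that includes the D2-only overlaps, 999 were lower and 414 higher. In the quintile of longest genes (76.2 kb and over), 28% were lower and 8.22% higher. The part of gene length in these counts was not tested.

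A single long gene model showed the pattern most plainly. In GENCODE vM21, Gm20388 is annotated as a protein-coding gene of 4434882 bases on the plus strand of chr8:119910841-124345722 (GRCm38), and the count table has no row for it. Of the 37 tested symbols inside its span on the same strand, 25 were lower in D2 and 1 was higher, with a median log2 fold change of -1.15. Of the 36 on the opposite strand, 5 were lower and 3 higher, with a median of -0.02. Galnt2, which encodes a glycosyltransferase that starts O-linked glycosylation and which lies at the end of the span, had 546 and 557 counts in B6 and 22 and 14 in D2 (log2 -4.83 ± 0.17), while the snATAC-seq peak at its start had 24.8 and 24.6 CPM in B6 and 25.3 and 25.4 in D2. The strain and the gene list used to count that strain's reads cannot be told apart for such symbols.

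**Figure D1:**
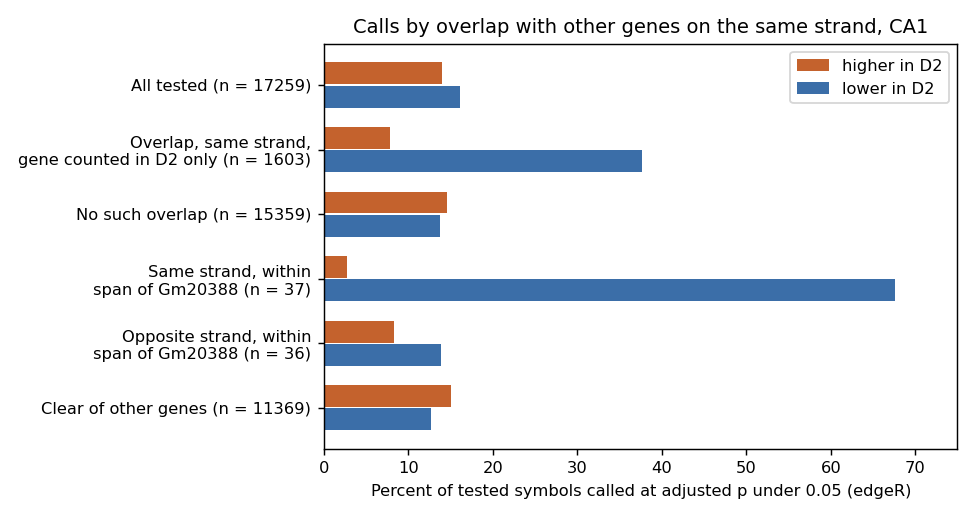
Percentage of tested CA1 symbols called higher (orange) or lower (blue) in D2 than in B6, by overlap with other genes on the same strand. Symbols within the span of Gm20388 on its strand were called lower in 67.6% of cases, against 13.9% on the opposite strand and 16.1% over all symbols tested.

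Other very large decreases were of the same kind. Pram1, inside the span of Gm20507, had 861 and 777 counts in B6 and 5 and 3 in D2 (log2 -7.54 ± 0.20, adjusted p = 2.81e-12 by edgeR). Rnasek, which overlaps Gm21988, had 542 and 475 counts against 1 and 5, and Cpne1, a copine that binds phospholipids in a calcium-dependent way and that overlaps Gm28036, had 746 and 741 against 5 and 5. Brms1 and B4gat1, neighbors on chromosome 19 that both overlap AC124502.3, had 526 and 397 counts against 4 and 3, and 311 and 259 against 10 and 7. Sap25 (251 and 187 counts against 1 and 1) and Nme2, a nucleoside diphosphate kinase (197 and 174 against 0 and 2), overlap Gm20605 and Gm20390. These 7 genes were chosen for the size of their decrease. The promoter peaks within 1 kb of a start that 6 of them had (Sap25 had none) were not called. They differed by 0.02 to 0.18 on the log2 scale. Inside the gene, the called peak with the largest change was lower in D2 for Brms1 by both edgeR and DESeq2 (-0.63 ± 0.09). By edgeR alone it was lower for Pram1 (-0.81 ± 0.23) and higher for Rnasek (0.21 ± 0.07).

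Some symbols occupied a second, numbered row in the table. There were 32 such symbols, and in 16 the second row held CA1 counts in D2 and none in B6. Arhgap26, a GTPase-activating protein, had 4773 and 4537 counts in B6 and 108 and 89 in D2 in its first row, while its second row held 0 and 0 in B6 and 2700 and 2065 in D2. For Atp5o, a subunit of the mitochondrial ATP synthase, the first row held 267 and 348 counts in B6 and 5530 and 4332 in D2, and the second row held 0 and 0 in B6 and 366 and 352 in D2. The counts of these symbols cannot be compared between strains row by row.

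Of the 13 transcripts of the mitochondrial genome tested, 10 were lower in D2 and none higher, with a median log2 fold change of -1.40. Those with near-identical nuclear copies had far fewer counts in D2 than in B6. Of mt-Co2, a subunit of cytochrome c oxidase, 99.5% of the 31-base words are also in Gm28661, a copy on chromosome 1, and it had 3602 and 4981 counts in B6 and 6 and 1 in D2. The values were 5407 and 7127 against 45 and 21 for mt-Co3, 5100 and 6861 against 87 and 52 for mt-Atp6, and 576 and 764 against 1 and 1 for mt-Nd3, whose copy Gm28438 had 415 counts in D2 and 0 in B6. For mt-Nd1, a subunit of complex I that shares 0% of its words with a nuclear copy, the counts were 1517 and 2380 in B6 and 1754 and 1006 in D2 and the groups overlapped. mt-Cytb, with 6.55% shared, had 2313 and 3407 against 2508 and 1301. Transcripts with intermediate or little sharing did not fall in the order of their shares. mt-Nd4 (62.8% shared) had 1810 and 2637 counts against 1473 and 766, and mt-Co1 (45.2%) 3863 and 5041 against 639 and 387. The counts of mt-Nd6 (7.36%) were 114 and 181 against 67 and 38. mt-Nd6 and mt-Cytb, the 2 that are clear of other genes by the definition that follows, were both called lower, although the CPM of mt-Cytb overlapped between strains (157 and 237 against 169 and 105).

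To set such cases aside, a symbol was called clear of other genes if it had 1 annotation entry, overlapped no other GENCODE vM21 or RefSeq gene on its strand, and shared under 10% of its 31-base words with another gene. The definition was chosen after the values were seen, and the authors' annotation releases are not given in the sources used here. Of 11369 clear symbols, 3146 (27.7%) were called, 1701 (15%) higher and 1445 (12.7%) lower in D2, with 781 (6.87%) over 2-fold, 424 higher and 357 lower. Their median log2 fold change was 0.04, and fitted on their own they gave 3008 calls, 1419 higher and 1589 lower. Protein-coding clear symbols were called higher in 1444 and lower in 949 of 9102 cases, and non-coding ones in 257 and 496 of 2267.

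Among the clear protein-coding genes higher in D2, the first by size was Glp1r, the receptor for the incretin hormone glucagon-like peptide 1, on chr17:30901817-30940791. It had 1 and 1 counts in B6 and 354 and 366 in D2, so that it was barely detected in B6. The ratio of summed counts, each relative to its strain's total CA1 counts, was 398, with a 95% counting interval of 110 to 3290 (counting error only), and the adjusted p was 1.11e-10 by edgeR. Dnah8, an axonemal dynein heavy chain that lies upstream of Glp1r on the same strand at chr17:30624354-30877365, had 20 and 21 counts in B6 and 181 and 196 in D2 (log2 3.30 ± 0.22).

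Rnf121, a RING-finger ubiquitin ligase of the secretory pathway on chr7:102019137-102065469, had 39.1 and 41.1 CPM in B6 and 936 and 860 CPM in D2 (log2 4.49 ± 0.08, adjusted p = 2.12e-14 by edgeR). Fap, the serine protease fibroblast activation protein, had 0.678 and 0.905 CPM in B6 and 9.99 and 14.8 in D2 (3.94 ± 0.29). Stab2, the scavenger receptor stabilin-2, had 7.66 and 6.96 CPM against 54.4 and 69.8 (3.08 ± 0.14). All were chosen by the size of the change and by no overlap between strains.

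Several metabolic and nucleic acid enzymes were in the same group. Mlycd, malonyl-CoA decarboxylase, had 8.13 and 6.82 CPM in B6 and 56.9 and 56.2 in D2 (log2 2.92 ± 0.12). Psat1, the aminotransferase of serine synthesis, had 2.10 and 2.30 CPM in B6 and 12.7 and 15.6 in D2 (2.67 ± 0.20). Adat2, the catalytic subunit of the tRNA adenosine deaminase that makes wobble inosine, had 2.17 and 3.20 against 20.5 and 22.7 CPM (3.0 ± 0.18). Lig4, the DNA ligase of non-homologous end joining, had 3.73 and 2.71 against 18.8 and 16.1 CPM (2.44 ± 0.18). No overlap between strains was a condition of their choice. Arhgef15, a guanine nucleotide exchange factor that limits excitatory synapse formation, had 2.24 and 1.39 CPM in B6 and 11.6 and 9.68 in D2 (2.55 ± 0.23). The other clear genes named here, Zc2hc1c, Zfp951, Ccdc81, Tktl1 (a transketolase-like protein) and Anxa4 (annexin A4, a calcium-dependent phospholipid-binding protein), had log2 fold changes of 2.25 to 3.53.

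Among clear protein-coding genes lower in D2, Banf2, a relative of barrier-to-autointegration factor on chr2:144033059-144073979, had 182 and 193 counts in B6 and 2 and 0 in D2. The ratio of summed counts, scaled as for Glp1r, was 170, with a counting interval of 46.6 to 1410, and the adjusted p was 5.43e-09 by edgeR. Tek, the angiopoietin receptor tyrosine kinase best known from endothelium, on chr4:94739289-94874976, had 602 and 578 counts in B6 and 9 and 6 in D2 (log2 -6.18 ± 0.19, adjusted p = 9.53e-12 by edgeR). Flt1, another receptor kinase of endothelium, stood at 0.610 and 1.53 CPM in B6 and 2.56 and 2.99 in D2, and its call was lost without B6 library 2 (adjusted p = 0.0866 by edgeR). Of the others lower in D2, Vinac1, of the vinculin and alpha-catenin family, had 15.4 and 15.5 CPM against 0.472 and 0.807 (-4.61 ± 0.24). Arhgdib, a GDP-dissociation inhibitor, had 25.4 and 23.1 CPM against 2.09 and 1.29 (-3.81 ± 0.19). Banf2, Tek, Vinac1 and Arhgdib were chosen by the size of the change and by no overlap between strains.

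Fggy, a carbohydrate kinase on chr4:95557507-95926939, had 37.9 and 37.9 CPM in B6 and 4.39 and 3.87 in D2 (log2 -3.19 ± 0.13). Rgs9, a regulator that speeds GTP hydrolysis by G protein alpha subunits, had 26.4 and 27.6 CPM in B6 and 6.75 and 5.25 in D2 (-2.16 ± 0.14). Mcmdc2, a relative of the MCM helicases that acts in meiotic recombination, had 61.8 and 60.2 CPM in B6 and 12.8 and 17.5 in D2 (-2.02 ± 0.12). Tmc7, a transmembrane channel-like protein, had 17.4 and 15.2 CPM against 4.72 and 4.04 (-1.89 ± 0.16). Hjurp, the chaperone that loads the centromeric histone CENP-A, had 16.4 and 18 CPM against 5.20 and 5.49 (-1.69 ± 0.15). The remaining 6, Klk12 (a kallikrein serine protease), Dcdc2b, Ccdc150, Zfp420, Ppm1m (a protein phosphatase) and Tmem267, had log2 fold changes of -3.23 to -1.65.

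**Figure D2:**
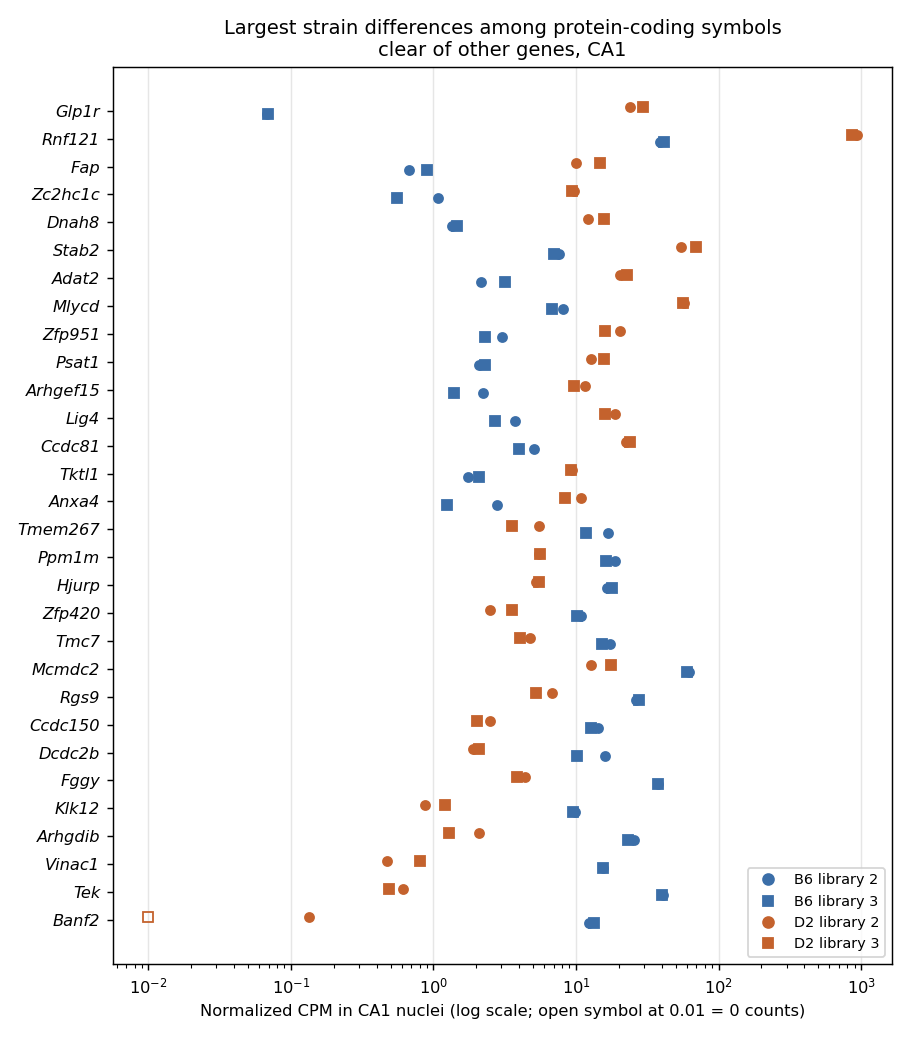
Normalized CPM (log axis) of the 15 clear protein-coding genes with the largest increase and the 15 with the largest decrease in D2 among those with a mean CPM of at least 5, with 1 point for each library. Genes were chosen so that both libraries of 1 strain lie above both of the other. They include Glp1r, with 1 and 1 counts in B6, and Rnf121, with 936 and 860 CPM in D2. The open symbol marks the library without counts of Banf2.

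Non-coding genes showed differences as large. Gm12160, a lincRNA on chr11:45160943-45213656, had 1 and 1 counts in B6 and 1420 and 1103 in D2, a scaled ratio of 1390 with a counting interval of 386 to 11500. Gm26793, annotated as antisense on chr7:144894560-144897461, had 1 and 0 counts against 280 and 187, and Gm20324 had 45 and 31 against 1160 and 816 (4.79 ± 0.15). The snATAC-seq peak that covers most of Gm26793 had 9.21 and 8.96 CPM in B6 and 18.5 and 19.1 in D2 (log2 1.05 ± 0.09). In the other direction Gm11290 had 387 and 184 counts against 6 and 10, Gm47448 had 530 and 681 against 41 and 44, and B230217J21Rik had 276 and 343 against 19 and 21. 1700026F02Rik, a lincRNA that is not clear of other genes, had 275 and 310 counts in B6 and 15 and 8 in D2. A peak inside it had 58 and 70 counts in B6 and none in either D2 library, at least 52.7-fold lower against a floor of 3 counts over the strain.

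Genes that are not clear were also among the largest increases. Dnajc5b, a DnaJ-type cochaperone related to the cysteine string protein, had 27 and 25 counts in B6 and 427 and 327 in D2 (log2 3.95 ± 0.17) and overlaps Gm6141. Ifitm2, an interferon-induced transmembrane protein, had 17 and 8 counts against 178 and 183 (3.94 ± 0.26) and overlaps Gm45717. Gm38394, which overlaps the zinc finger gene Zc3h11a, had 29 and 29 against 317 and 300 (3.51 ± 0.17). Cyp2j11, a cytochrome P450, had 12 and 15 against 150 and 115 counts (3.38 ± 0.24), and Gm3417 had 17 and 16 against 189 and 129 (3.35 ± 0.23). That D2 exceeded B6 in every pair of libraries was a condition for naming these 5 genes. Among non-coding symbols that are not clear, 1700061I17Rik had 3 and 3 counts in B6 and 192 and 242 in D2, and Gm17167 had 222 and 235 against 2 and 1.

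For 6 clear protein-coding genes, the peak at the promoter moved with the transcript by both edgeR and DESeq2. The Glp1r promoter peak had 1.89 and 2.14 CPM in B6 and 3.67 and 4.65 in D2 (log2 1.05 ± 0.17, adjusted p = 4.03e-07 by edgeR). The Fggy peak had 20.1 and 20.6 CPM in B6 and 6.72 and 6.61 in D2 (-1.61 ± 0.09, adjusted p = 2.47e-34). The peaks of Tmem267 (38.1 and 53.1 against 20.9 and 21.4 CPM, -1.11 ± 0.08), Rgs9 (15 and 13.3 against 7.87 and 7.56, -0.87 ± 0.10), Tmc7 (15.1 and 15.2 against 9.19 and 8.74, -0.76 ± 0.09) and Hjurp (105 and 103 against 65.4 and 64.9, -0.68 ± 0.06) were lower in D2. In all 6 the peak changed less than the transcript, and neither strain lost it.

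The promoters of these 6 genes are shown because transcript and accessibility moved together there. Each is the RefSeq window of 250 bases before to 50 bases after a start (GRCm38.p6, the reference sequence and not that of D2), read 5′ to 3′ on the gene's strand. Capitals mark CG dinucleotides, which read the same on both strands and are the sites of most DNA methylation in mammals. The windows lie at chr17:30901617-30901916 (plus strand) for Glp1r, chr4:95557257-95557556 (plus) for Fggy, chr11:109298132-109298431 (minus) for Rgs9, chr7:118584637-118584936 (minus) for Tmc7, chr1:88277530-88277829 (minus) for Hjurp and chr13:119487836-119488135 (plus) for Tmem267.
Glp1r: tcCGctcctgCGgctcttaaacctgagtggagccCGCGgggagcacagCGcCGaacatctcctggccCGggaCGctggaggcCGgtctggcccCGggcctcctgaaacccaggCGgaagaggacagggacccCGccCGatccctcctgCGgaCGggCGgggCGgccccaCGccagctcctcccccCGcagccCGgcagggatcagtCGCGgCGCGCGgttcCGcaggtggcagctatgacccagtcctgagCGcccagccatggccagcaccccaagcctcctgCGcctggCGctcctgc
Fggy: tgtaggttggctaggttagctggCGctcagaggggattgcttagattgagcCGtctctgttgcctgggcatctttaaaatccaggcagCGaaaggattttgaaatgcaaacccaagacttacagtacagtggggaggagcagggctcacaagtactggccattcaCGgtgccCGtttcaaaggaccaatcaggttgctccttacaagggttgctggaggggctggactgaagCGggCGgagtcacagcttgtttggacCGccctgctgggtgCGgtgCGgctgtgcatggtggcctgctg
Rgs9: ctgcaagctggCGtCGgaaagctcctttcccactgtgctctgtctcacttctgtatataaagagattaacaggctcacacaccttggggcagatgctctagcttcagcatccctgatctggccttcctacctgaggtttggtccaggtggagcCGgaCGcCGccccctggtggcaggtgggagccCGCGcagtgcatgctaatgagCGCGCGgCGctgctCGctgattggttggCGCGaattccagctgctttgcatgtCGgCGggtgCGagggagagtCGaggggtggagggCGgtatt
Tmc7: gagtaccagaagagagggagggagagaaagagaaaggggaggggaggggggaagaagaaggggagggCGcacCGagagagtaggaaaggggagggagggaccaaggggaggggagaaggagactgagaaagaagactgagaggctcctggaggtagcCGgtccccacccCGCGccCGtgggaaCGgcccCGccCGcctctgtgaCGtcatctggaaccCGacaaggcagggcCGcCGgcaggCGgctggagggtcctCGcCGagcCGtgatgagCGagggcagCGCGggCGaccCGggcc
Hjurp: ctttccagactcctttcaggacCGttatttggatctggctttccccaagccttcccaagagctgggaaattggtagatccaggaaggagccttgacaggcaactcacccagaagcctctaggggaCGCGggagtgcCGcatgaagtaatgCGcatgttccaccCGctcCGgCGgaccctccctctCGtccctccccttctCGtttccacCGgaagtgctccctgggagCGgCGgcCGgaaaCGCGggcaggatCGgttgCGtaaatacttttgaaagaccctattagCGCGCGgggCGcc
Tmem267: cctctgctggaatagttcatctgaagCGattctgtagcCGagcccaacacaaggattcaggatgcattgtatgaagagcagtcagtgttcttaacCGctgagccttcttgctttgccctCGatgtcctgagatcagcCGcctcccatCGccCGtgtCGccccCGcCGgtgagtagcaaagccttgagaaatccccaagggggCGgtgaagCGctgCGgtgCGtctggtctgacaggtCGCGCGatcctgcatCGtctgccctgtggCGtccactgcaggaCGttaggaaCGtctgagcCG

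The Glp1r window holds 29 CG dinucleotides, a number that 12.9% of 32817 RefSeq promoter windows of this length reach. Tmc7, Hjurp and Tmem267 hold 22 each, Rgs9 19 and Fggy 10, against a median of 7 over all windows, of which 94.6% hold at least 1 CG. The windows of Glp1r, Fggy, Tmc7, Hjurp and Tmem267 lie wholly within the peak that moved, and 241 of the 300 bases of the Rgs9 window do. Strain variants in these windows were not analysed here.

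Some other genes with large transcript differences had no matching difference at the promoter. The Rnf121 promoter peak had 26.9 and 26.6 CPM in B6 and 30.1 and 24.8 in D2 (log2 0.03 ± 0.08), and those of Mlycd (0.03 ± 0.08), Fap (0.05 ± 0.12) and Tek (0.21 ± 0.16) were likewise not called. Away from the promoter, the called peak with the largest change inside each of these genes moved with the transcript. That peak was higher in D2 by both edgeR and DESeq2 for Rnf121 (1.22 ± 0.23) and Mlycd (1.00 ± 0.17). By edgeR alone it was higher for Fap (0.86 ± 0.28) and lower for Tek (-0.86 ± 0.23). The Stab2 promoter peak was higher in D2 by edgeR (0.53 ± 0.14, adjusted p = 0.00642) and not called by DESeq2, and a peak inside the gene at chr10:86968977-86969840 had 10.6 and 8.84 CPM in B6 and 1.06 and 1.28 in D2 (-3.03 ± 0.16), opposite to the transcript. Sv2c, a synaptic vesicle glycoprotein whose span overlaps Gm20075, had 4.68 and 6.68 CPM of transcript in B6 and 59.9 and 55.9 in D2 (3.35 ± 0.14), and a peak inside it at chr13:96023448-96024450 had 0.931 and 0.907 CPM against 7.90 and 7.39 (3.05 ± 0.18). The promoter peak of Zfp420, whose transcript was lower in D2 (-1.81 ± 0.20), was higher in D2 by both edgeR and DESeq2, at 17.6 and 18.3 CPM in B6 and 23.8 and 22 in D2 (0.35 ± 0.08, adjusted p = 0.000558 by edgeR). At Zfp951, a zinc finger gene higher in D2, the peak that spans the start had 82 and 72 counts in B6 and none in D2, at least 63.4-fold lower. The next peak, with a midpoint 1082 bases into the gene, moved with the transcript by both edgeR and DESeq2. That peak had 1 and 6 counts in B6 and 39 and 57 in D2 (log2 3.47 ± 0.43).

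Promoter accessibility was compared with the transcript over all genes. By edgeR, higher peaks were more frequent beside transcripts higher in D2 than beside transcripts not called. Lower peaks were likewise more frequent beside transcripts lower in D2. Transcripts lower in D2 had about as many higher as lower peaks by edgeR, but fewer higher than lower peaks by DESeq2. In CA1 nuclei 24829 of 300753 peaks (8.26%) were called, 12351 (4.11%) higher and 12478 (4.15%) lower in D2, and of 13939 peaks within 1 kb of a start 8.21% were called. Without D2 library 2, 15683 peaks were called. Of the 2118 transcripts higher in D2 that had a promoter peak, 288 (13.6%) had one that was higher in D2 and 20 had one that was lower. For the 10419 transcripts that were not called, the counts were 619 (5.94%) higher and 114 (1.09%) lower. Of the 2247 transcripts lower in D2, 123 (5.47%) had a higher and 107 (4.76%) a lower promoter peak, with a median peak difference of 0.06 on the log2 scale, against 0.08 for transcripts not called and 0.10 for those higher in D2. The shares were larger for transcripts over 2-fold apart: 25% with a higher and 2.7% with a lower peak among those higher in D2, and 3.65% with a higher and 13.2% with a lower peak among those lower in D2. Clear symbols gave 13% and 0.783% for higher transcripts and 6.16% and 5.3% for lower ones. With peaks called by DESeq2, 26 (1.16%) of the 2247 lower transcripts had a higher and 56 (2.49%) a lower promoter peak. The counts for transcripts not called were then 103 (0.989%) and 45 (0.432%). Nuclei for snATAC-seq were not sorted with NeuN, and the libraries were separate from those of snRNA-seq.

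The direction of the strain difference varied with gene span, the distance from the first to the last base of a gene. Among clear symbols, the median log2 fold change was 0.13 in the shortest quintile (0.285 to 6.73 kb), then 0.11, 0.07 and 0.04, and -0.08 in the longest quintile (54.9 to 1570 kb). In the shortest quintile 16.1% of symbols were called higher in D2 and 11.2% lower, and in the longest 9.45% and 20.9%. Medians in CA3 nuclei of the same libraries ran from 0.16 to -0.08. Introns were retained in the counts. In a fit with the trend on gene span removed from each library, an alternative chosen after seeing the data, 4646 symbols were called, 2169 of them higher in D2, and the 5 medians lay between 0.00 and 0.03. Counts from that fit are given beside those of the gene lists below. The shares to set beside each list are 14% higher and 16.1% lower in D2, or 30.1% called, over all symbols tested. Some lists lay near the share called: 32% of the Zfp genes and 33.3% of the MHC genes.

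**Figure D3:**
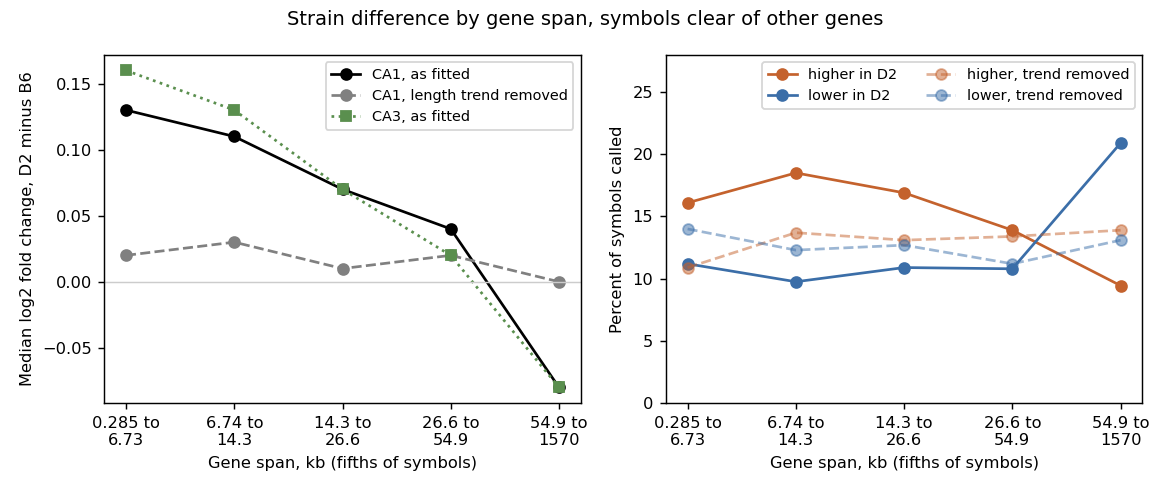
Left, median log2 fold change (D2 minus B6) of clear symbols by quintile of gene span in kb, in CA1 as fitted, in CA1 with the trend on span removed, and in CA3. Right, percentage of the same symbols called higher or lower in D2 in CA1, solid as fitted and dashed with the trend removed. The CA1 median fell from 0.13 to -0.08 and the percentage called lower rose from 11.2 to 20.9 in the longest quintile.

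Nuclear-encoded genes of the respiratory chain and ATP synthase, which make up the complexes of oxidative phosphorylation, were higher in D2 more often than lower. Of 76 tested, 34 were higher in D2 and 2 lower, with a median log2 fold change of 0.31, against 14% higher, 16.1% lower and a median of 0.01 over all symbols. With the trend on span removed, 24 were higher and 3 lower of 74, with a median of 0.22, and among 46 clear members 19 were higher and none lower. DESeq2 called 17 higher and 1 lower of 80. Summed CPM was 2060 in each B6 library and 2770 and 2800 in D2, of which Atp5o, whose rows are split as described above, held 18.1 and 24.2 in B6 and 373 and 350 in D2.

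Subunits from each of these complexes took part. Of complex I, Ndufb3 had 27.0 and 24.7 CPM in B6 and 37.5 and 39.9 in D2 (log2 0.58 ± 0.10). Sdhc, of succinate dehydrogenase, had 14.3 and 14.5 against 22.5 and 25.2 CPM (0.73 ± 0.12). Uqcrq, of complex III, had 18.9 and 19.5 against 29.2 and 30.7 (0.64 ± 0.10). Cox5a, of cytochrome c oxidase, had 29.5 and 32.7 against 45.7 and 50.4 (0.63 ± 0.10), and Atp5mpl, of the ATP synthase, had 11.1 and 13.4 against 18.4 and 23.2 (0.76 ± 0.14). Their B6 and D2 libraries did not overlap. The 2 that were lower in D2, Ndufb4 (-0.51 ± 0.17) and Atp5h (-0.37 ± 0.09), are not clear of other genes, and neither are Ndufb3 and Sdhc. The call of Ndufb4 was lost without B6 library 3 or D2 library 2 (adjusted p = 0.139 and 0.246 by edgeR).

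The 78 cytosolic ribosomal protein genes tested, short genes with many processed copies, were mixed: 10 were higher and 18 lower in D2, with a median of -0.05, or 6 and 25 with the trend removed, and 7 of the 78 are clear of other genes. Among 350 zinc finger genes named Zfp, a large family of mostly KRAB-type DNA-binding repressors of repeats, 74 were higher and 38 lower, with a median of 0.14. With the trend on span removed the counts were 62 and 36, and among 214 clear members 51 and 13. Without D2 library 3 the counts were 42 higher and 28 lower.

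Genes of the postsynaptic density were mostly lower in D2 where they were called. Of 32 scaffold and kinase genes, 16 were lower and 1 higher, with a median log2 fold change of -0.18. With the trend on span removed, 9 were lower and 3 higher, with a median of -0.08. Camkk1, the kinase that activates CaM kinases I and IV, had 57.1 and 67.6 CPM in B6 and 45.5 and 36.2 in D2 (-0.60 ± 0.11). Shank1, a master scaffold of the density, had 187 and 194 against 143 and 136 CPM (-0.45 ± 0.07), Camk4 209 and 205 against 166 and 143 (-0.42 ± 0.08), and Dlg4, which encodes PSD-95, 117 and 107 against 92.8 and 94.2 (-0.26 ± 0.07). Camk2a, the alpha subunit of CaM kinase II, had 961 and 964 against 791 and 766 CPM (-0.31 ± 0.06), and Camk2g was the member called higher (0.37 ± 0.10), a call lost without B6 library 2 (adjusted p = 0.111 by edgeR).

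Synaptic adhesion genes, which code for the paired cell-surface proteins that join the 2 sides of a synapse, were lower in D2 for 21 and higher for 3 of 45, with a median of -0.16. These are long genes, with a median span of 291 kb, and with the trend on span removed 11 were lower and 5 higher, with a median of -0.04. Cntnap2, a neurexin-like protein that clusters potassium channels, had 3040 and 3000 CPM in B6 and 1660 and 1690 in D2 (log2 -0.85 ± 0.05, adjusted p = 1.53e-08 by edgeR). Nlgn3, a neuroligin, had 33.5 and 34.9 against 19.6 and 18.8 CPM (-0.83 ± 0.10), and neither is clear of other genes. Flrt3 (202 and 206 against 129 and 126 CPM, -0.68 ± 0.07) and Lrrc4 (572 and 580 against 417 and 397, -0.50 ± 0.06) are clear. Flrt1, Lrrtm2 and Slitrk2 were higher, by 0.43 to 0.55. Without D2 library 3 the calls of Lrrtm2 and Slitrk2 were lost (adjusted p = 0.217 and 0.168 by edgeR), and without B6 library 2 that of Lrrtm2 (0.0652). Among 22 cadherins and nonclustered protocadherins 8 were lower and 4 higher, but 3 lower and 7 higher with the trend on span removed, so that the balance of this list turned with it. Without D2 library 2 the cadherins gave 5 lower and 2 higher.

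Ion channels showed single genes with clear differences in both directions. Of 52 potassium and HCN channel genes, 16 were lower in D2 and 7 higher (median -0.13), and 10 and 7 with the trend on span removed. Kcnip3 (calsenilin) had 126 and 132 CPM in B6 and 58.6 and 61.8 in D2 (log2 -1.10 ± 0.08), and Kcnip4 had 6410 and 6470 against 4060 and 4170 (-0.65 ± 0.05). Both overlap other genes and are not clear of them. Both encode auxiliary subunits of the A-type Kv4 channels, as does Kcnip2, at 70.2 and 58.5 against 46.0 and 39.1 CPM (-0.59 ± 0.10), and the pore subunit Kcnd2 was lower by less (2360 and 2430 against 1950 and 1980 CPM, -0.29 ± 0.05). Hcn2, a channel of the h-current, was higher in D2 (46.3 and 42.9 against 52.3 and 56.6 CPM, 0.29 ± 0.09). Kcnj9, a GIRK subunit, was higher too, at 37.4 and 39.6 against 58.3 and 62.7 CPM (0.65 ± 0.09). Of 28 sodium and calcium channel genes 21.4% were called, against 30.1% over all symbols, 4 lower and 2 higher, or 3 and 2 with the trend removed. The largest decrease among them was that of Cacna1a, the pore of P/Q-type calcium channels, at 636 and 627 against 435 and 420 CPM (-0.56 ± 0.06).

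Neurotransmitter receptors differed gene by gene. Of 23 glutamate receptor genes, 4 were higher and 6 lower, but 5 and 0 with the trend on span removed. Gria1, the main AMPA receptor subunit of CA1, had 2380 and 2310 CPM in B6 and 2020 and 1950 in D2 (log2 -0.24 ± 0.05), and Grik4, a kainate receptor subunit, had 147 and 126 against 199 and 190 (0.51 ± 0.08). Of 15 GABA receptor genes 5 (33.3%) were lower and 2 (13.3%) higher, against 16.1% and 14% over all symbols. With the trend on span removed the counts were 3 and 3 (median 0.00 as fitted and 0.11 with it removed). Gabra5, the alpha subunit of the extrasynaptic receptors of CA1 dendrites, had 105 and 109 CPM in B6 and 68.4 and 63.8 in D2 (-0.70 ± 0.08). Without D2 library 3 the calls were 3 higher and 2 lower for glutamate receptors and 0 higher and 4 lower for GABA receptors.

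Of 32 receptors for monoamines, acetylcholine, opioids and cannabinoids, 5 were higher and 6 lower in D2, or 6 and 7 with the trend on span removed, shares near the 14% and 16.1% over all symbols. Oprm1, the mu opioid receptor, had 84.3 and 96.3 CPM in B6 and 49.1 and 53.5 in D2 (log2 -0.82 ± 0.09). Oprk1, the kappa opioid receptor, was near its detection limit, at 1.22 and 1.11 against 0.202 and 0.161 CPM, and Oprd1, the delta opioid receptor, was higher in D2 (7.52 and 7.86 against 11.7 and 13.3 CPM, 0.70 ± 0.15). Chrna7, the alpha7 nicotinic receptor (119 and 118 against 78.7 and 67.3 CPM, -0.70 ± 0.08), and Chrm3, a muscarinic receptor (519 and 452 against 308 and 322, -0.63 ± 0.07), were lower. Cnr1, the cannabinoid receptor CB1, had 64.5 and 61.9 against 82.9 and 91.3 CPM (0.46 ± 0.08), and Adra2c 8.61 and 8.91 against 15.6 and 15.5 (0.83 ± 0.13). Interneurons also express Cnr1 strongly. The summed interneuron markers, given above, were lower in D2, and their part in the Cnr1 value was not tested.

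Genes of vesicle release were divided, with 6 (15%) higher and 10 (25%) lower of 40, against 14% and 16.1% over all symbols. With the trend on span removed 8 were higher and 2 lower. Snap25, a SNARE protein, had 845 and 821 CPM in B6 and 1030 and 1040 in D2 (log2 0.31 ± 0.06), and Rab3c, a GTPase of synaptic vesicles, had 396 and 402 against 279 and 259 (-0.57 ± 0.06). Without D2 library 3 the counts were 5 higher and 4 lower. Activity-induced immediate early genes were mostly not called, with 1 lower and none higher when the trend on span was removed: of 15, Junb was higher (0.47 ± 0.15) and Nr4a1 lower (-0.40 ± 0.10), and Fos stood at 1.56 and 2.30 CPM in B6 and 0.810 and 2.42 in D2. Without D2 library 3 Junb lost its call (adjusted p = 0.528 by edgeR) and 4 of the list were lower, and without D2 library 2 Nr4a1 lost its call (0.0509). Of 7 corticosteroid receptors and targets 3 were lower, Fkbp5, the glucocorticoid-induced cochaperone of the receptor (95.3 and 74.9 against 50.0 and 48.2 CPM, -0.79 ± 0.10), Per1 (24.1 and 22.3 against 17.4 and 14.4, -0.54 ± 0.12) and Tsc22d3 (-0.89 ± 0.30), and none was higher, with 2 lower when the trend was removed. The call of Tsc22d3 was lost without each library in turn. The receptors themselves, Nr3c1 and Nr3c2, were not called.

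Of 31 imprinted genes 11 were higher and 5 lower in D2, or 12 and 2 with the trend on span removed. Meg3, a maternally expressed long non-coding RNA, had 9780 and 9870 CPM in B6 and 12700 and 12100 in D2 (log2 0.33 ± 0.05). Nnat, neuronatin, had 424 and 444 against 607 and 601 (0.48 ± 0.06), and Zrsr1, a retrogene inside Commd1, had 12.9 and 10.6 against 30.8 and 33.9 (1.45 ± 0.12). Ube3a, the ubiquitin ligase of Angelman syndrome, had 2550 and 2600 CPM against 1320 and 1240 (-1.01 ± 0.05), and Commd1 25.4 and 28 against 4.18 and 3.23 (-2.83 ± 0.15), and neither Ube3a nor Commd1 is clear of other genes. Of 9 MHC class I and antigen presentation genes 3 were higher, H2-D1, H2-K1 and H2-T23, by 0.98 to 1.17, with 2 higher when the trend was removed and none without D2 library 2. B6 and D2 carry different MHC haplotypes, these genes have near-identical relatives and none of the 3 is clear, so their values are uncertain.

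**Figure D4:**
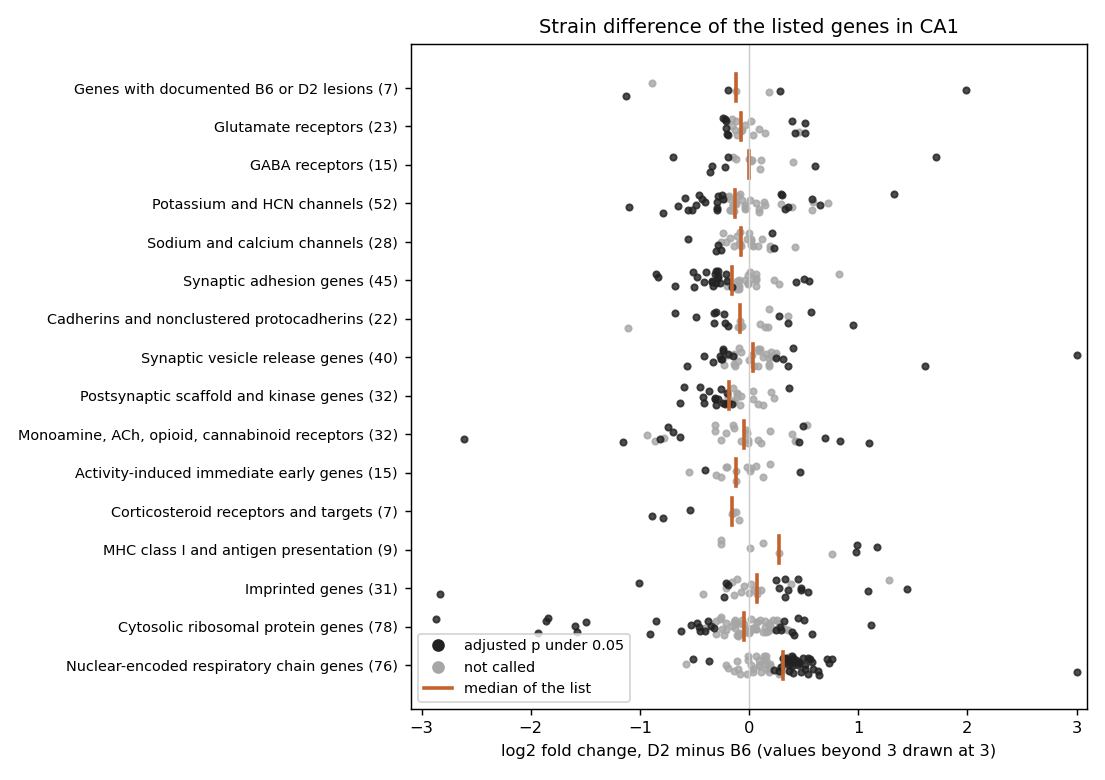
Log2 fold change (D2 minus B6) in CA1 of each tested gene of the 16 lists named on the axis, with the number of genes in parentheses. Black points were called at an adjusted p under 0.05, gray points were not, and the orange bar is the median of the list, which ran from -0.18 for postsynaptic scaffold and kinase genes to 0.31 for nuclear-encoded respiratory chain genes.

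Genes for which a lesion is documented in 1 of these strains were read for comparison. Alad, delta-aminolevulinate dehydratase of heme synthesis, is duplicated in D2, and had 3.93 and 3.76 CPM in B6 and 14.2 and 16.6 in D2 (log2 1.99 ± 0.17, adjusted p = 6.34e-07 by edgeR). Gabra2, which carries an intronic deletion in B6, had 657 and 676 CPM in B6 and 581 and 589 in D2 (-0.19 ± 0.06). The call of Gabra2 was lost without D2 library 2 (adjusted p = 0.111 by edgeR) and without D2 library 3 (0.09). Nnt, the nicotinamide nucleotide transhydrogenase with an exon deletion in B6, had 3.19 and 2.78 against 1.48 and 1.21 CPM (-1.13 ± 0.29), has more than 1 annotation entry, and the counts include introns. Myo5a, Glo1 and Fscn2 were not called, and 5 genes of the list were not tested.

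To see which differences were particular to CA1, the strain difference was compared with that of CA3 nuclei from the same libraries by an interaction test. Of 17248 symbols, 172 (0.997%) had a strain difference that itself differed between the fields, 94 with a more positive and 78 with a more negative value in CA1, and 86 of the 172 are clear. Glp1r rose in D2 in both fields, at 1.74 and 1.05 CPM in B6 and 29.9 and 26.3 in D2 in CA3, against 1 and 1 counts in B6 CA1 (interaction adjusted p = 0.0139 by edgeR). That interaction was no longer called without B6 library 2 (adjusted p = 0.128).

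Adamts9, a secreted metalloprotease of the extracellular matrix, had 7.19 and 4.59 CPM in B6 and 25.2 and 21.6 in D2 in CA1 (log2 1.99 ± 0.17), but 100 and 94.2 against 97.7 and 92.9 CPM in CA3 (-0.03 ± 0.09). The interaction was 2.01 ± 0.15 (adjusted p = 1.47e-06 by edgeR). A730049H05Rik, an overlapping gene on the opposite strand, moved likewise in CA1 (3.86 and 4.52 against 12.4 and 13.2 CPM, 1.61 ± 0.17) and the other way in CA3 (75.2 and 69.0 against 46.5 and 50.2, -0.58 ± 0.11). Reads of a gene and its antisense partner are kept apart only as far as the counting used strand, which is not given in the sources used here. Both stood higher in CA3 than in CA1. By CA1 cluster the strain difference of Adamts9 was 2.93 in Exc-CA1-Galntl6, 1.57 in Exc-CA1-Fras1 and 0.06 in Exc-CA1-Camk2d.

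Col11a1, a fibrillar collagen, was the converse. It had 19.3 and 18.4 CPM in B6 and 16.7 and 16.9 in D2 in CA1 (log2 -0.16 ± 0.11, adjusted p = 0.314 by edgeR), and 65 and 92.5 against 302 and 310 CPM in CA3 (1.97 ± 0.12), an interaction of -2.15 ± 0.15. Dchs2, a protocadherin of the Dachsous family, had 24.2 and 21.0 against 22.3 and 19.0 CPM in CA1 (-0.12 ± 0.12) and 64.1 and 58.7 against 12.4 and 18.1 in CA3 (-2.04 ± 0.15). Trmt9b, a tRNA methyltransferase-like protein, was lower in D2 in CA1 (26.6 and 28.7 against 16.2 and 15.4 CPM, -0.80 ± 0.11) and higher in CA3 (5.50 and 7.53 against 15 and 14.1, 1.18 ± 0.22). Gm38505, a lincRNA, did the same, with 28.2 and 28.6 against 10.3 and 8.15 CPM in CA1 (-1.62 ± 0.13) and 4.63 and 3.33 against 7.76 and 9.38 in CA3 (1.07 ± 0.27). The number of such symbols varied with the test: limma on the differences between fields within each library called 0 after adjustment, with 1513 symbols at an unadjusted p under 0.05, against 1727 by edgeR. Without B6 library 3 edgeR called 387 and without D2 library 2 it called 266.

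**Figure D5:**
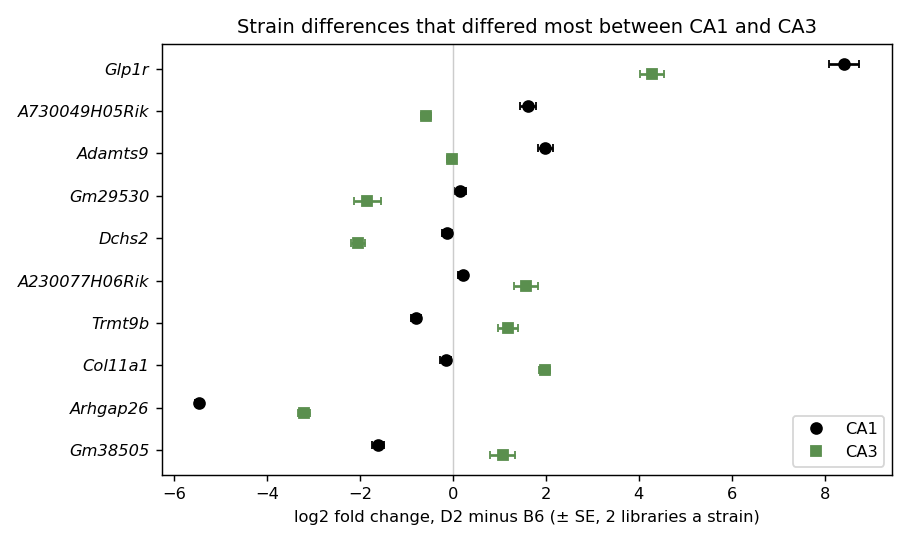
Log2 fold change (D2 minus B6) ± SE in CA1 (black circles) and CA3 (green squares) of the 5 symbols with the largest positive and the 5 with the largest negative difference between the fields, from 2 libraries a strain. Adamts9 stood at 1.99 in CA1 and -0.03 in CA3, and Col11a1 at -0.16 and 1.97. The CA1 value of Glp1r is set by 1 and 1 counts in B6 and is not a bound.

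Of the 4300 called symbols that could be tested in each of the 3 CA1 clusters, 4136 (96.2%) had the same direction in all 3, 856 were called in all 3 and 1070 in none. The symbols were called on the sum of these clusters from the same libraries, which favors a shared sign, so the share is a description. Tested alone, Exc-CA1-Galntl6 gave 3933 calls, Exc-CA1-Fras1 2736 and Exc-CA1-Camk2d, which has the fewest counts in B6, 1255. Rnf121, Tek and Fggy kept their call in each of the 3 clusters.

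Calls were spread over the genome. Among chromosomes apart from the mitochondrial, the percentage of tested symbols called ran from 23.4 on chromosome X to 35.3 on chromosome 17, and in 10-Mb windows with at least 20 tested symbols from 5 to 58.1, with a median of 30.2 over 250 windows. The highest share was on chromosome 12 between 20 and 30 Mb, where 25 of 43 symbols were called, 9 higher and 16 lower in D2. Among clear symbols the highest was on chromosome 14 between 10 and 20 Mb, at 59.3%, with 16 of 27 called.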

How the data were processed

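snRNA-seq and snATAC-seq of ventral hippocampal nuclei were analysed from tables of whole-number counts that the authors deposited, summed per library and cluster over genes or peaks. Per the paper's methods and the submitters' processing notes, reads were processed with Cell Ranger 6.0.2 or Cell Ranger ATAC 2.0.0 and Seurat 4.0.5. B6 reads were aligned to mm10 and D2 reads to mm10 with D2 variants put in, with introns retained. Doublets were removed with DoubletFinder, and peaks were called with MACS per sample and merged. The annotation releases of each strain are not given in the sources used here.

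CA1 columns were summed per library. Symbols with counts in both strains that passed filterByExpr were tested with edgeR 4.0.16 (R 4.3.3) by quasi-likelihood with TMM scaling, peaks with at least 10 counts likewise, and p-values were adjusted by Benjamini-Hochberg. DESeq2 1.42.0, the tool of the study, and limma 3.58.1 were alternatives. Overlaps and gene positions came from GENCODE vM21 and RefSeq, matched by symbol. pandas 2.3.3, numpy 2.4.6 and scipy 1.17.1 were also used. CPM values are TMM-scaled, log2 values are D2 minus B6, and counting intervals are 95% and cover counting error only. A strain without counts was set to a floor of 3 counts. The biological coefficient of variation was 0.0626. In simulated libraries with 200 changed features, edgeR recovered 79% and 99% of transcripts changed by 1 and 2 on the log2 scale over 17259 symbols, and 58% and 92% of peaks over 300753 peaks. For DESeq2 the shares were 64% and 89% of transcripts and 19% and 72% of peaks. False calls made up 0.559% of edgeR and 0.649% of DESeq2 transcript calls, and 6.25% and 0% of peak calls. All simulated features of an assay shared 1 dispersion, and far fewer changed than were called here. The simulated shares therefore do not give the recovery or the false share of the real comparison. With 2 libraries a strain an exact permutation test of a single gene cannot pass the threshold.

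Libraries are numbered 2 and 3 in the tables and 1 and 2 in the labels, so columns were placed by strain alone. Deviations of same-numbered libraries from their strain means had a correlation of -0.02 over 17259 symbols. Not used were 52 RNA and 48 ATAC columns of other clusters and brain regions, and the 16 methylation samples were not analysed here.

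The members and gene lists were chosen with earlier results of these data known. Named genes were the 10 protein-coding and 3 other symbols with the largest change each way among called symbols with a mean CPM of at least 5, no overlap between strains, 1 annotation entry and no same-strand overlap with a gene counted in 1 strain. To these were added the 5 largest decreases that overlap a D2-only gene, the 5 largest interactions each way, leading list members, CA1 markers and lesion genes, and the promoter and strongest peaks of the named genes. The definition of clear symbols, the 15 largest clear genes each way and the fit without the trend on gene span were added after the values were seen. Values of some genes of the lists are not reported here.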

Additional observations from a re-analysis of the deposited data

Results flagged for a closer look

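For 10 symbols the D2 minus B6 difference in CA1 differed from that in CA3 by a test of the difference itself (edgeR interaction, adjusted p under 0.05). The CA1 minus CA3 value on the log2 scale was 4.01 for Glp1r, 2.18 for A730049H05Rik, 2.01 for Adamts9, 1.99 for Gm29530 and 1.91 for Dchs2. It was -2.69 for Gm38505, -2.27 for Arhgap26, -2.15 for Col11a1, -1.99 for Trmt9b and -1.36 for A230077H06Rik. The value of Glp1r is set by 1 and 1 counts in the B6 libraries in CA1, and the rows of Arhgap26 are split between strains. limma on the differences between fields within each library called 0 symbols after adjustment, with 1513 at an unadjusted p under 0.05. Groups of 2 libraries were too small to look for single libraries that stand apart.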

How the results depend on the processing

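The number of CA1 transcripts called, 5194, was 2873 by DESeq2, 1255 in Exc-CA1-Camk2d alone, 2736 in Exc-CA1-Fras1 alone and 3008 with symbols clear of other genes alone, and lay between 3604 and 5430 with each library left out in turn. The number over 2-fold, 1369, was 890, 641, 808 and 782 under those settings and 1209 to 1372 with a library left out. Of list members 152 were called, against 28 in Exc-CA1-Camk2d and 81 among clear symbols, and 112 to 162 with a library left out. RLE scaling, other count filters, equal cluster weights, other totals and leaving out overlapping symbols kept these counts within 1.5 times. The table's library numbers are not shown to pair samples: with a replicate block 5455 transcripts and 28434 peaks were called. Removing the trend on gene span moved the share of list calls higher in D2 from 32.9% to 53.1%. By DESeq2 fewer members of several lists were called: 55 Zfp, 6 glutamate receptor, 7 monoamine receptor and 2 lesion genes, 1 MHC gene and 0 interneuron markers and immediate early genes.

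Of the called symbols that overlap a D2-only gene 82.8% were lower in D2, and 87.4% with at least 10 counts asked of that gene. The interaction with CA3, 172 calls, gave 0 by limma and 88 among clear symbols, and 179 to 387 with a library left out. Peaks called, 24829, were 7568 by DESeq2 and 15683 to 19294 with a library left out, and the share of higher transcripts with a higher promoter peak, 13.6%, was 4.67% with DESeq2 calls. The highest share of calls in a window rose from 58.1% to 76% in 5-Mb windows. In Exc-CA1-Camk2d alone the sign turned for Galntl6 (0.21), Lamp5 (0.03), Cdh4 (0.66), Cdh6 (0.79), Rph3a (0.17) and Nr4a1 (0.07), and Dlgap2 went to 0.00 with the span trend removed. Apart from the alternatives' own construction (fewer symbols or nuclei), the cause was not tested. A library left alone in its strain was assumed to vary like the other strain's. Depth limited the low genes: a B6 count of 1 and 1 gave the Glp1r ratio an interval of 110 to 3290.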
